A study of Mus musculus with 9 samples.

Results

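The miRNAs described here are the 10 mature arms of the hairpins miR-143, miR-145, miR-199a, miR-214 and miR-140, which are best known from mesenchyme, the loose embryonic tissue that gives rise to connective tissue, smooth muscle and cartilage. They were chosen by name, both arms of each hairpin, and all 10 were found among the 986 miRNA rows of the deposited table. Small RNA had been sequenced from mouse embryos at embryonic day 9.5, without their hearts and tail buds. The embryos carried different deletions in the miR-17~92 cluster, which holds miRNAs of 4 seed families, with 1 library for each genotype. In the library Delta-17 miR-17 had been deleted, in Delta-18 miR-18, in Delta-19 miR-19 and in Delta-92 miR-92. Delta-17,18 lacked miR-17 and miR-18, 19-only lacked miR-17, miR-18 and miR-92, Full-KO lacked the whole cluster, and Wild-type carried the full cluster. All 8 were labelled female, and the labels do not say whether a library came from 1 embryo or from pooled embryos. They give no strain and no promoter or Cre, and a library of reads that could not be assigned to a genotype entered no comparison between genotypes.

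In animals, a miRNA hairpin is cut into 2 arms, 5p and 3p. One of them, the guide, is usually kept in the silencing complex, where its seed (bases 2 to 8) pairs with target mRNAs, while the partner arm is mostly degraded. miR-143 and miR-145 are made from 1 precursor transcript and are known from smooth muscle, where miR-145 represses the stem cell factor Klf4. miR-199a-2 and miR-214 are made from the non-coding RNA Dnm3os, whose loss disturbs skeletal growth in mice. miR-140 is known from cartilage, where it lies in the gene Wwp2 and its loss gives mice a short skeleton and short face.

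The mature sequences are shown because the results turn on the difference between arms. They were taken from RefSeq (GRCm38.p6), which gave a mature sequence for 5 of the 10 members. Capitals mark the seed.

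mmu-miR-199a-5p: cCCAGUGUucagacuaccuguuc

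mmu-miR-199a-3p: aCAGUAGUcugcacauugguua

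mmu-miR-214-5p: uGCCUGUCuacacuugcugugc

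mmu-miR-214-3p: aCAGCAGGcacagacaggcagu

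mmu-miR-140-3p: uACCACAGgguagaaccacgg

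No 2 of these 5 shared a seed. The hairpins show how the arms lie in their precursors, with the annotated mature arms in capitals. Both miR-199a hairpins hold identical arms, so reads cannot be assigned to one of them, and miR-199b-3p from a further gene has the same sequence as miR-199a-3p.

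Mir199a-2: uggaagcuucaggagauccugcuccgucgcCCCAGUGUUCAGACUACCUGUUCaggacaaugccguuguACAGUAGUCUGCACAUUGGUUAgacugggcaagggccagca

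Mir199a-1: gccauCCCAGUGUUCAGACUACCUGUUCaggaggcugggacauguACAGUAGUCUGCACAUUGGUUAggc

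Mir214: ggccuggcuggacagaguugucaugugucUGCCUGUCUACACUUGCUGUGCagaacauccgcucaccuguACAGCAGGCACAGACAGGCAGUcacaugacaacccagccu

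Mir140: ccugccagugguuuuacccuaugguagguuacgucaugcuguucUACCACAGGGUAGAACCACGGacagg

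Mir199a-2 lies on chromosome 1 (GRCm38, plus strand, 162217814 to 162217923) and Mir214 lies 5444 bases further on the same strand (162223368 to 162223477). In the GENCODE annotation both overlap exons of Dnm3os (162217623 to 162225550) and lie, on the opposite strand, in introns of the dynamin gene Dnm3. Mir199a-1 lies on chromosome 9 (minus strand, 21496495 to 21496564) in an intron of Dnm2 on the opposite strand. Mir140 lies on chromosome 8 (plus strand, 107551244 to 107551313) and overlaps an annotated exon of the ubiquitin ligase gene Wwp2 on the same strand.

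The 8 genotype libraries held between 6564471 and 18481380 reads assigned to mature miRNAs. Levels are given as normalised reads (nRPM) on a scale where the mean library totals 1000000, and 1 read stood for 0.0624 nRPM in Delta-18, the deepest library, up to 0.157 nRPM in Wild-type. Of the 35 pairs of a deleted cluster arm and a library lacking it, miR-92a-3p left aside, 33 stood at 1.04% of Wild-type or less. The other 2 were miR-19b-3p, at 5.73% in Delta-19 and 10.6% in Full-KO, whose mature sequence is also made by a paralog cluster. With 1 library per genotype there was no replicate check, and each ratio sets 1 library beside another. The 95% intervals cover counting error only.

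The 10 arms together took between 2.61% of the reads in Delta-17,18 and 4.40% in 19-only, against 2.86% in Wild-type. miR-143-3p, miR-140-3p and miR-199a-3p were the abundant arms and varied little. The widest changes were on miR-199a-5p, miR-140-5p and miR-214-5p, which were rarer than those arms. The libraries came from almost whole embryos, so fewer mesenchymal cells and less of a miRNA per cell cannot be told apart, and the data hold no test of the cell type that gave these reads.

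**Figure D1:**
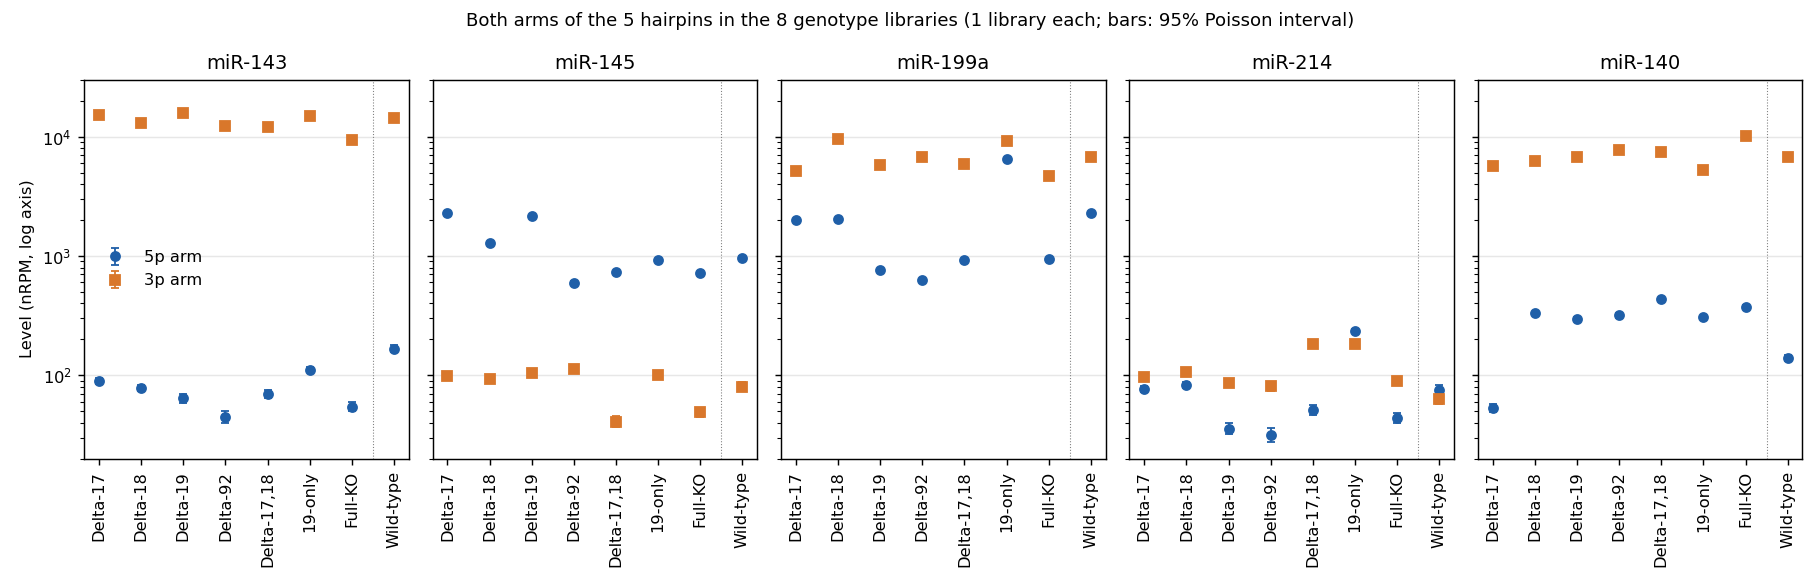
Level of the 5p arm (blue circles) and 3p arm (orange squares) of each hairpin in nRPM on a log axis, in the 7 mutant libraries and, right of the dotted line, Wild-type; bars are 95% Poisson intervals, mostly smaller than the points. The 3p arms of miR-143, miR-199a and miR-140 form flat rows, while the 5p arms of miR-199a, miR-214 and miR-140 spread over 10.4-fold, 7.37-fold and 8.18-fold.

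miR-143-3p, the guide of its hairpin, was the most abundant of the 10 arms and the steadiest. It stood at 15196 nRPM in Delta-17, 12979 in Delta-18, 15866 in Delta-19, 12187 in Delta-92, 11996 in Delta-17,18, 14890.0 in 19-only and 9288 in Full-KO, against 14371 nRPM in Wild-type. The mutant libraries lay on both sides of Wild-type, with 3 of 7 above it, and Full-KO was lowest at 0.646 of Wild-type (95% interval 0.640 to 0.652). Its highest and lowest levels differed by 1.71-fold, and 11.6% of the 551 miRNAs averaging 10 nRPM or more had a smaller range.

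The partner arm miR-143-5p was highest in Wild-type. It had 89.7 nRPM in Delta-17, 78.4 in Delta-18, 63.8 in Delta-19, 44.5 in Delta-92, 69.6 in Delta-17,18, 111.5 in 19-only and 54.4 in Full-KO, against 167 nRPM in Wild-type. All 7 mutant libraries were below Wild-type, and 5 of them by 2-fold or more. Wild-type was the highest library for 12.0% of the 551 miRNAs. The library nearest to Wild-type was 19-only, and the lowest, Delta-92, stood at 0.266 of Wild-type (0.234 to 0.302).

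miR-145-5p, the guide of the neighbouring hairpin, was high in 2 libraries that share no deleted family. It stood at 2276 nRPM in Delta-17 and 2168 in Delta-19, and at 1276 in Delta-18, 599 in Delta-92, 735 in Delta-17,18, 917 in 19-only and 715 in Full-KO, against 967 nRPM in Wild-type. Delta-17 was 2.35-fold (2.29 to 2.42) and Delta-19 2.24-fold (2.18 to 2.31) of Wild-type. Full-KO, in which both of those families are missing, stood below Wild-type at 0.739 of its level.

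The partner arm miR-145-3p ranged from 40.8 nRPM in Delta-17,18 to 112.8 nRPM in Delta-92, with 79.9 nRPM in Wild-type. On this arm all 7 mutant libraries lay within 2-fold of Wild-type. From Delta-92 down through Delta-19, 19-only, Delta-17 and Delta-18, each library overlapped the next in its counting interval, so the order of neighbours, first place included, is not resolved. Delta-92, among these 5 for miR-145-3p, was lowest for miR-145-5p.

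miR-199a-3p, known to repress Met and mTOR in human liver cancer cells, lay in a narrow band. It had 5141 nRPM in Delta-17, 9569 in Delta-18, 5821 in Delta-19, 6807 in Delta-92, 5924 in Delta-17,18, 9120.1 in 19-only and 4660 in Full-KO, against 6743 nRPM in Wild-type. Delta-18 and 19-only stood above the rest, and none of the 7 reached 2-fold. The row of miR-199b-3p held between 99.0% and 99.95% as many reads as that of miR-199a-3p in each library, so the loci cannot be told apart here.

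miR-199a-5p spread most of the 10 arms. It had 2015 nRPM in Delta-17, 2032 in Delta-18, 761 in Delta-19, 627 in Delta-92, 926 in Delta-17,18, 6517 in 19-only and 939.0 in Full-KO, against 2277 nRPM in Wild-type. The library 19-only stood at 2.86-fold (2.81 to 2.91) of Wild-type, and 4 libraries stood 2-fold or more below it. These were Delta-92 at 0.275 (0.266 to 0.285), Delta-19 at 0.334, Delta-17,18 at 0.406 and Full-KO at 0.412 of Wild-type. The range was 10.4-fold, and 94.6% of the 551 miRNAs had a smaller one. Without 19-only, the range was 3.63-fold.

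miR-214-5p, from the same Dnm3os transcript as one of the miR-199a hairpins, followed miR-199a-5p at a lower level. It had 76.6 nRPM in Delta-17, 82.8 in Delta-18, 35.7 in Delta-19, 31.8 in Delta-92, 50.8 in Delta-17,18, 234 in 19-only and 44.1 in Full-KO, against 75.8 nRPM in Wild-type. Its range was 7.37-fold, and 2.61-fold without 19-only. Again 19-only stood highest, at 3.09-fold (2.81 to 3.40) of Wild-type, and Delta-92 lowest, at 0.419 (0.356 to 0.492). Delta-17, Delta-18 and Wild-type lay next to each other with overlapping intervals.

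Over the 8 libraries, log2 levels of miR-199a-5p and miR-214-5p had a Pearson r of 0.99 (Spearman rho 0.90), and an r of 0.98 over the 7 libraries without 19-only. The 3p arms miR-199a-3p and miR-214-3p had an r of 0.30, and miR-199a-5p and miR-214-3p one of 0.36. miR-143-5p, from another transcript, had an r of 0.77 with miR-199a-5p. The part of the shared transcript in these r values was not tested. miR-199b-5p, from a hairpin in an intron of Dnm1 on the opposite strand, had an r of 0.88 with miR-199a-5p. It had 188 nRPM in Delta-17, 261 in Delta-18, 96.2 in Delta-19, 62.5 in Delta-92, 75.9 in Delta-17,18, 255 in 19-only and 80.5 in Full-KO, against 154 nRPM in Wild-type. For miR-199b-5p Delta-18 and 19-only were both high, so 19-only did not stand alone. These r values describe 8 libraries that share their scaling and composition.

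miR-214-3p followed its partner arm only loosely over the 8 libraries (r = 0.50), and not without 19-only (r = 0.02). It had 96.4 nRPM in Delta-17, 105.8 in Delta-18, 86.0 in Delta-19, 80.6 in Delta-92, 183.4 in Delta-17,18, 181.9 in 19-only and 90.1 in Full-KO, against 63.7 nRPM in Wild-type. All 7 mutant libraries were above Wild-type, which was the lowest library for 13.6% of the 551 miRNAs. Delta-17,18 at 2.88-fold (2.58 to 3.22) and 19-only at 2.85-fold (2.57 to 3.18) stood apart from the other 5, and did not differ from each other beyond their counting intervals. Delta-17,18 was high on the 3p arm but not on the 5p arm.

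miR-140-3p, the more abundant arm of the cartilage hairpin, ranged 1.92-fold. It was lowest in 19-only at 5281 nRPM and highest in Full-KO at 10132 nRPM, against 6782 nRPM in Wild-type. Full-KO was 1.31-fold above the next library, and the other 6 mutant libraries lay between 5281 and 7730.2 nRPM. No mutant library reached 2-fold.

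miR-140-5p was low in 2 libraries and several-fold higher in the other 6. It had 52.8 nRPM in Delta-17, 332 in Delta-18, 296 in Delta-19, 317 in Delta-92, 432 in Delta-17,18, 306 in 19-only and 374 in Full-KO, against 139.6 nRPM in Wild-type. The low libraries were Delta-17, at 0.379 of Wild-type (0.343 to 0.418), and Wild-type itself. The other 6 stood between 2.12-fold (1.96 to 2.29) and 3.10-fold (2.88 to 3.34) of Wild-type. Of these 6 libraries 3 lack miR-17, as Delta-17 does. The range was 8.18-fold, and 92.6% of the 551 miRNAs had a smaller one. Without Delta-17 the range was 3.10-fold.

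**Figure D2:**
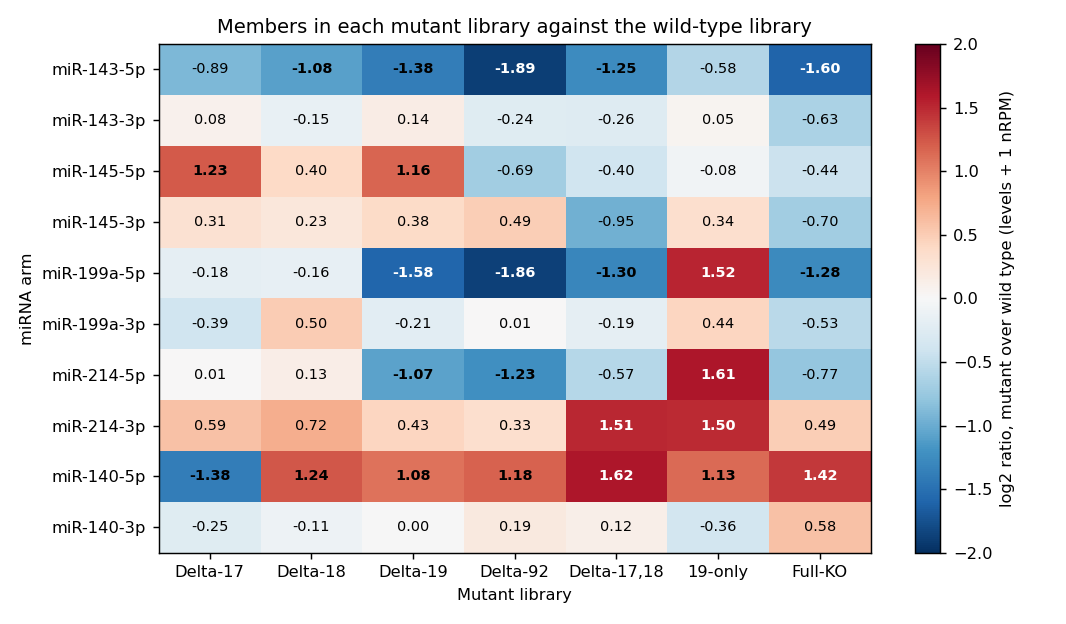
log2 ratio of each mutant library to Wild-type for the 10 arms (levels with 1 nRPM added), red where the mutant library was higher and blue where it was lower; bold numbers mark 2-fold or more. Bold values stand on the 5p arms of all 5 hairpins and, among the 3p arms, on miR-214 alone.

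Counted over the 10 arms, 24 of the 70 combinations of an arm and a mutant library lay 2-fold or more from Wild-type (log2 ratio of 1 or more either way, with 1 nRPM added). The percentages that follow are the shares of the 551 miRNAs that lay as far off in the same direction. In Delta-17, 1 arm was higher (4.54%) and 1 lower (7.8%), and in Delta-18 1 was higher (9.26%) and 1 lower (8.17%). Delta-19 had 2 higher (4.72%) and 3 lower (9.98%), and Delta-92 had 1 higher (9.07%) and 3 lower (8.53%). Delta-17,18 had 2 higher (11.4%) and 2 lower (13.4%). In 19-only 4 were higher (11.3%) and 0 lower (10.7%), and in Full-KO 1 was higher (8.53%) and 2 were lower (11.6%). With 10 arms a count of 1 lies near these shares. Counts of 2 or more stood against a share under 10% in both directions in Delta-19 and for the lower arms in Delta-92, and 4 higher arms stood against 11.3% in 19-only. None of these differences was tested.

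Median log2 ratios of the 10 arms were -0.08 in Delta-17, 0.18 in Delta-18, 0.07 in Delta-19, -0.11 in Delta-92, -0.33 in Delta-17,18, 0.39 in 19-only and -0.58 in Full-KO. Those of the 551 miRNAs averaging 10 nRPM or more lay between -0.03 and 0.03. Scaling to plain library totals moved the median of all miRNAs in 19-only by 0.37 and scaling to reads outside the cluster moved it in Full-KO by -0.22. Of the 10 arms, 3 stood above 0 in Full-KO and 7 in 19-only.

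These counts rested on the Wild-type library. When the median of the 8 libraries replaced it, 7 of the 70 pairs differed by 2-fold or more, of which 6 were among the 24. The 6 were miR-145-5p in Delta-17 and Delta-19, miR-199a-5p in Delta-92 and 19-only, miR-214-5p in 19-only and miR-140-5p in Delta-17. The seventh was miR-145-3p in Delta-17,18 (log2 -1.22). Against the same median, Wild-type itself stood at log2 1.17 for miR-143-5p and -1.15 for miR-140-5p, and it stood 2-fold or more away for 7.90% of the 329 miRNAs averaging 100 nRPM or more. The same share was between 5.47% and 8.21% for the 7 mutant libraries. miR-143-5p, miR-145-3p and miR-214-5p averaged below 100 nRPM, so the 329 do not include them.

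The arms of a hairpin are counted in the same library, so their ratio needs no scaling. The miR-199a reads pool the hairpins Mir199a-1 and Mir199a-2, so they cannot be traced to 1 precursor. For miR-199a, the 5p arm made up 28.2% of the reads of both arms in Delta-17, 17.5% in Delta-18, 11.6% in Delta-19, 8.43% in Delta-92, 13.5% in Delta-17,18, 41.7% in 19-only and 16.8% in Full-KO, against 25.2% in Wild-type. The ratio of 5p to 3p thus ranged 7.76-fold, from 0.0921 (0.0892 to 0.0950) in Delta-92 to 0.715 (0.709 to 0.721) in 19-only. Reads of miR-199b-3p cannot be separated from the 3p reads used here.

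For miR-214 the more abundant arm changed with the library. The 5p arm held 56.3% of the reads in 19-only and 54.3% in Wild-type, and between 21.7% (Delta-17,18) and 44.3% (Delta-17) in the other 6 libraries. For miR-140 the 5p arm held 0.918% in Delta-17, between 3.56% and 5.54% in the other mutant libraries, and 2.02% in Wild-type, a range of 6.33-fold in the arm ratio. For miR-145 the guide 5p held 84.1% in Delta-92, between 90.1% and 95.8% in the other mutant libraries, and 92.4% in Wild-type. For miR-143 the partner 5p held 1.15% in Wild-type and between 0.364% and 0.743% in the mutant libraries.

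**Figure D3:**
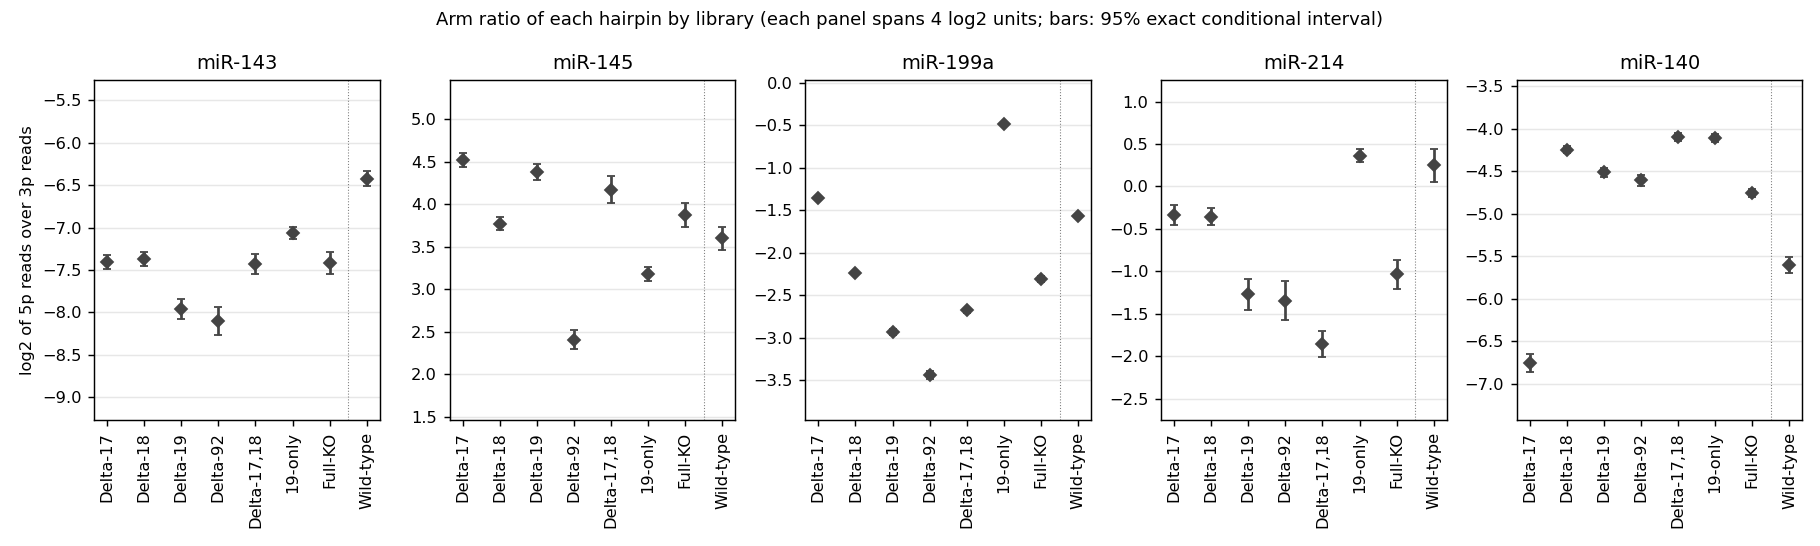
log2 ratio of 5p to 3p reads of each hairpin by library, with 95% exact conditional intervals and Wild-type right of the dotted line; each panel spans the same 4 log2 units at its own height. The ratio of miR-199a is highest in 19-only and lowest in Delta-92, and that of miR-140 is lowest in Delta-17.

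Such shifts between arms were common in the whole table. Among 168 pairs of arms outside the cluster with both arms averaging 10 nRPM or more, the arm ratio ranged 4.13-fold in the median, and 53.0% of the pairs ranged 4-fold or more. Of the 5 hairpins here 4 did. The arm ratio of miR-199a (7.76-fold) had 30 of the 168 pairs above it, that of miR-140 40 and that of miR-214 (4.64-fold) 72, while miR-145 (4.33-fold) had 82 and miR-143 (3.19-fold) 111. Log2 levels of both arms had a Pearson r between 0.44 (miR-145) and 0.58 (miR-199a) in these 5 hairpins over the 8 libraries, and a median of 0.08 over the 168 pairs. Without 19-only, r was 0.02 for miR-214, 0.31 for miR-199a, 0.48 for miR-143, 0.49 for miR-145 and 0.62 for miR-140. The median over the 168 pairs was not computed without 19-only. The 5p arm had the wider range in 5 of 5 hairpins and in 59.5% of the 168 pairs. It was the rarer arm in 4 of the 5, and the rarer arm had the wider range in 57.7% of the 168 pairs.

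**Figure D4:**
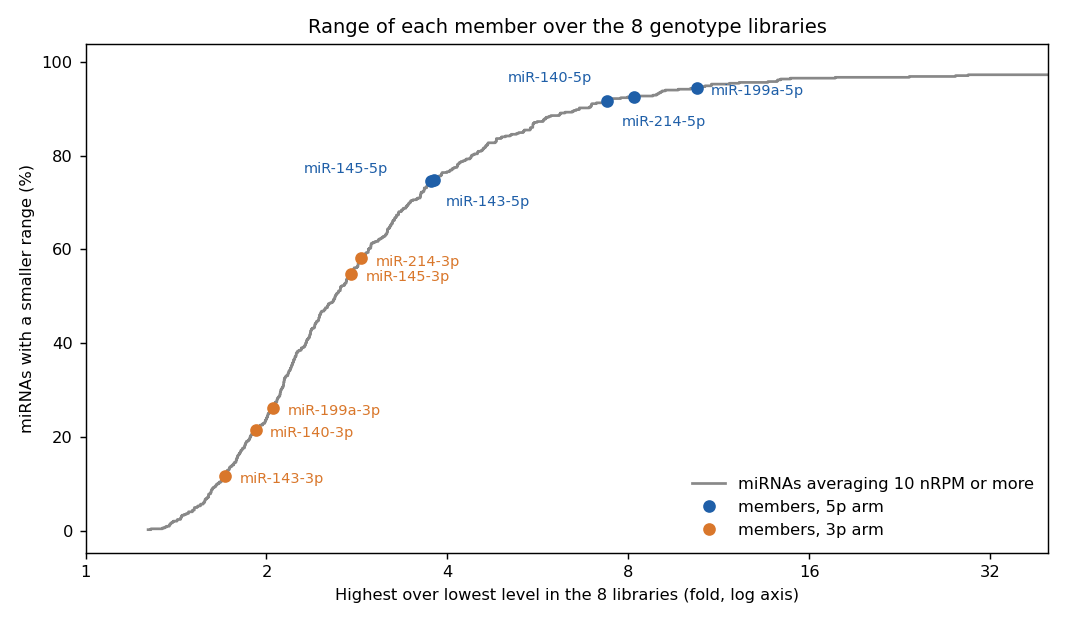
Highest over lowest level of each member (log axis, blue for 5p and orange for 3p arms) against the percent of miRNAs averaging 10 nRPM or more that had a smaller range; the grey curve is all of them, and its few values beyond the right edge are not drawn. The 5p arms of miR-214, miR-140 and miR-199a lie at 91.7% to 94.6% of the curve and the 3p arms of miR-143, miR-140 and miR-199a at 11.6% to 26.1%.

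Set beside all miRNAs, the members' levels were neither uniformly steady nor uniformly variable. Their highest over lowest levels had a median of 3.32-fold, against 2.60-fold for the 551 miRNAs. A range of 4-fold or more was found in 3 of 10 members and in 23.4% of the 551. The 3 members were miR-199a-5p, miR-140-5p and miR-214-5p.

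The loss of a family was then tested over the whole series, in 1 limma model with an additive term for each of the 4 families over the 8 libraries. It called none of the 10 arms for any term with Benjamini-Hochberg adjustment over the 551 miRNAs tested. Of all miRNAs the model called 0.726% for the miR-17 term and as many for the miR-19 term, and 0.363% for each of the miR-18 and miR-92 terms, all of them deleted arms of the cluster. Taking the terms in numerical order, at an unadjusted p under 0.05 limma counted 0, 1, 0 and 0 of the 10 arms. Among all 551 miRNAs it counted 17, 25, 21 and 9. edgeR's quasi-likelihood test called 0 arms, against 4, 0, 4 and 2 of the 551. For the miR-18 term it thus did not call the deleted arms either. Unadjusted, edgeR counted 0, 1, 0 and 0 arms, against 15, 22, 22 and 7 of the 551. DESeq2 called 0 arms, against 6, 3, 6 and 2 of the 551, and unadjusted counted 0, 1, 0 and 1, against 22, 29, 30 and 19.

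The arm with the lowest p was miR-140-5p for the loss of miR-18 (log2 1.54 ± 0.50 SE, limma adjusted p = 0.649). The 4 libraries without miR-18 had 332, 432, 306 and 374 nRPM, and those with it 52.8, 296, 317 and, in Wild-type, 139.6 nRPM, so the groups overlapped. The estimate was 0.63 without Delta-17 and 2.59 without Delta-18, and over 19 alternatives its adjusted p lay between 0.145 and 0.9996. For the loss of miR-17 the same arm had a log2 of -1.09 ± 0.50 (limma adjusted p = 0.996). That estimate was -0.04 without Delta-17, -0.67 without Delta-92 and -2.001 without Delta-18. For the loss of miR-92, miR-145-5p had -0.90 ± 0.43 (limma adjusted p = 0.990), and the estimate lay between -1.30 (without Delta-17,18) and -0.39 (without Delta-92) with 1 library left out.

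For the loss of miR-19, miR-199a-5p had a log2 of -1.11 ± 0.77 and miR-214-5p -0.92 ± 0.62, both with a limma adjusted p of 0.959. Delta-19 and Full-KO had 761 and 939.0 nRPM of miR-199a-5p, and the 6 libraries with miR-19 between 627 and 6517 nRPM. Delta-92, with the lowest level, keeps miR-19. Without Delta-92 limma made 5 calls among 550 miRNAs for this term, 4 of them arms of the cluster. At an unadjusted p under 0.05 it counted 3 of the 10 arms and 32 of the 550. The remaining call was miR-199a-5p (-2.27 ± 0.41, limma adjusted p = 0.0217, 2 residual degrees of freedom). The estimate was -1.63 without Delta-19, -0.65 without Full-KO and -0.51 without 19-only, with no call. The fit without Delta-92 gave the only call of a member with 1 library left out, and over 19 alternatives its adjusted p lay between 0.0217 and 0.994. miR-214-5p in that fit had -1.78 ± 0.46 and a limma adjusted p of 0.236, and its estimate was -0.44 without 19-only and -0.39 without Full-KO.

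For the miR-19 term, 7 of the 10 arms had a fitted log2 below 0, with a median of -0.29 against -0.01 over all miRNAs tested. For each of the other 3 terms 4 of 10 did, with medians of 0.08, 0.24 and 0.06 for miR-17, miR-18 and miR-92 against -0.004, 0.02 and 0.01 over all. With Full-KO left out, the median for the miR-19 term was 0.08 and 5 of 10 arms were below 0. With any other library left out, this median lay between -0.68 and -0.13. The former was without Delta-19 (9 of 10 arms below 0) and the latter without 19-only (6 of 10). How many of all miRNAs had an estimate below 0 was not counted.

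**Figure D5:**
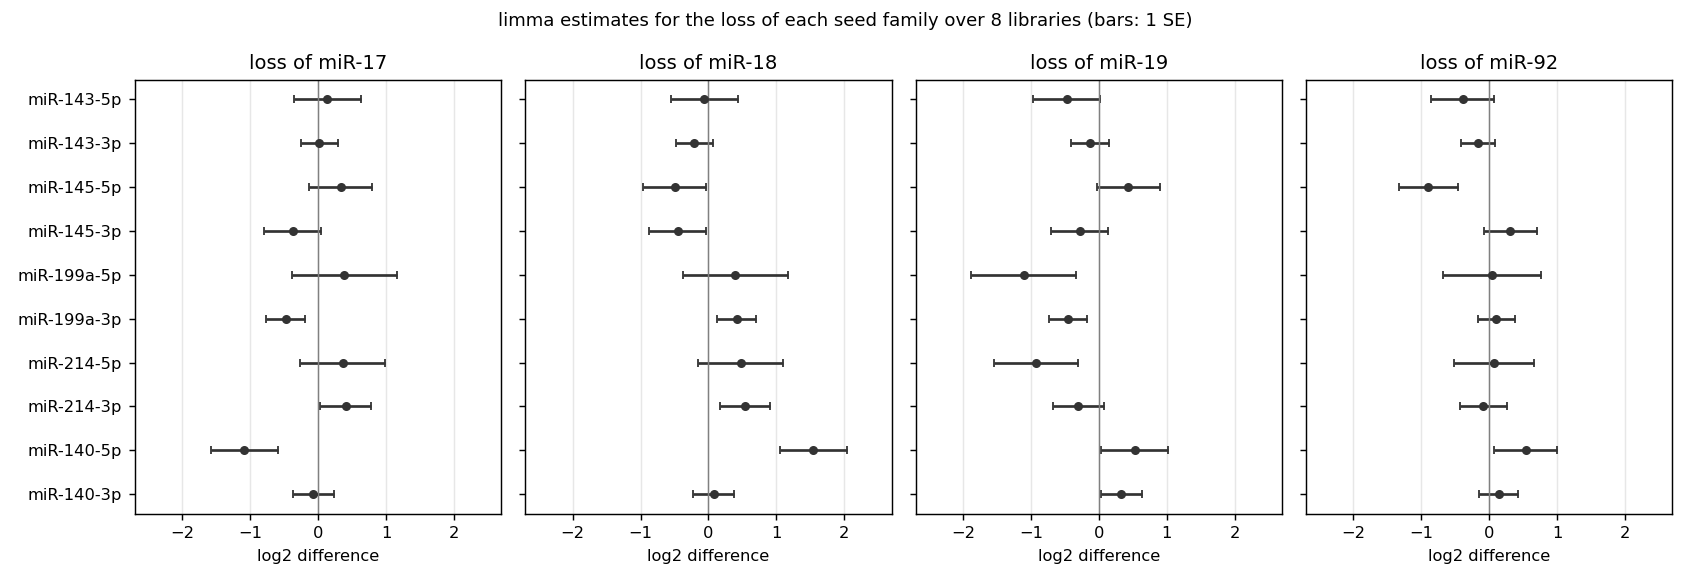
limma estimates (points) with 1 standard error (bars) for the loss of each seed family on the log2 scale, 1 panel per family, for the 10 arms. The estimate farthest from 0 is miR-140-5p for the loss of miR-18 (1.54), and the widest bars belong to miR-199a-5p.

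Beyond these 10 arms, a list of 21 further miRNAs known from mesenchyme, fibroblasts or cartilage was examined in the same way, and all 21 were tested. limma called 0 for any term, with a lowest adjusted p of 0.959, and the median range over the 8 libraries was 2.37-fold. The most abundant, miR-21-5p, a miRNA raised in fibrosis, had between 13063 and 27599 nRPM in the mutant libraries and 17473 nRPM in Wild-type. The next, miR-199b-3p, repeats the reads of miR-199a-3p. miR-152-3p had between 2331 and 4551 nRPM in the mutant libraries and 3689 nRPM in Wild-type, and no mutant library reached 2-fold.

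By size alone, the number of these 21 at 2-fold or more above Wild-type was 1 in Delta-17, against 4.54% of all 551 miRNAs, 4 in Delta-18 (9.26%), 2 in Delta-19 (4.72%) and 2 in Delta-92 (9.07%). It was 4 in Delta-17,18 (11.4%), 3 in 19-only (11.3%) and 2 in Full-KO (8.53%). The number as far below Wild-type was 1 in Delta-17 (7.8%), 1 in Delta-18 (8.17%), 1 in Delta-19 (9.98%) and 2 in Delta-92 (8.53%). It was 3 in Delta-17,18 (13.4%), 1 in 19-only (10.7%) and 1 in Full-KO (11.6%). As with miR-214-3p, Wild-type was the lowest of the 8 libraries for miR-24-3p, miR-29b-3p, miR-365-3p and miR-675-5p, against 13.6% of the 551 miRNAs. Wild-type was the highest library for miR-455-5p and miR-574-3p, against 12.0% of the 551. miR-455-5p, known from cartilage, had between 84.2 and 296.6 nRPM in 6 mutant libraries and 633.5 nRPM in Full-KO, against 654 nRPM in Wild-type. These miRNAs were singled out after their values had been seen.

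The miRNAs most like the higher arm of each hairpin over the 8 libraries were found by Pearson's r of log2 levels among 329 miRNAs, leaving out rows of the same hairpin and rows of identical mature sequence. For miR-199a-3p this left out miR-199b-3p, which repeats its reads, and miR-199b-5p was left out as well (r = 0.62). miR-143-3p was most like miR-329-3p (r = 0.88), miR-493-5p (0.88) and miR-1193-3p (0.82). miR-145-5p was most like miR-376a-3p (0.90), miR-324-5p (0.90) and miR-431-3p (0.88). miR-199a-3p was most like a pair of rows of miR-181b-5p (0.94 and 0.81) and miR-181a-1-3p (0.84). miR-214-3p was most like miR-301b-3p (0.89), miR-301a-3p (0.86) and miR-3071-3p (0.83), and miR-140-3p like miR-146b-5p (0.91) and the equal rows of miR-374c-3p and miR-374-5p (0.88). With 8 libraries and 329 candidates, these r values are a description only.

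Markers of other tissues varied between libraries as well. Of the muscle list (miR-1a, miR-133 and miR-206) all 4 were listed and none was at 0 throughout. Their sum lay between 2175 nRPM (Delta-17) and 5872 nRPM (Delta-17,18) in the mutant libraries and at 3026 nRPM in Wild-type. Both endothelial arms of miR-126 summed to between 7371 nRPM (19-only) and 17558 nRPM (Delta-17,18), with 10720.1 nRPM in Wild-type. The 7 epithelial miRNAs summed to between 9123 and 14029 nRPM, against 11767 nRPM in Wild-type. The 5 blood miRNAs were lowest in 19-only (1131 nRPM) and highest in Delta-18 (2621 nRPM), with 1865 nRPM in Wild-type. The 4 neural miRNAs were lowest in Delta-92 (2899 nRPM) and highest in Delta-17 (6106 nRPM), with 4188 nRPM in Wild-type. 19-only, highest for miR-199a-5p and miR-214-5p, was thus lowest for the endothelial and blood sums, and the part of tissue make-up in these differences was not tested.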

How the data were processed

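The deposited table holds 1 normalised signal value per mature miRNA and library. Build mm9 was used with featureCounts (Subread 1.4.2), STAR 2.2.0 and SAMtools 0.1.19, per the submitters' processing notes. RNA came from a Trizol extraction, per the labels' protocols. The sources used here do not give the treatment of reads that map to several places. Every deposited value divided by its column's step gave a whole number (100% within 0.001 reads), so whole reads were recovered. The 1046 rows held 977 accessions, and where an accession had several rows with totals within 10%, only the higher was kept, which left 986. Both arms of miR-199a had 2 such rows. Values were multiplied by 0.116 in all libraries (nRPM), so that the mean total of the 8 libraries was 1000000.

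The main test was limma 3.58.1 (trend, 3 residual degrees of freedom) on log2 of nRPM plus 1, which understates changes of low miRNAs, among miRNAs averaging 10 nRPM or more, with a threshold of 0.05 after Benjamini-Hochberg adjustment. It was checked on data simulated from the same additive model with a fixed spread. That check cannot show how large a change would be found in these arms. The limma p-values rest on the residual spread over 8 unreplicated libraries. edgeR 4.0.16 and DESeq2 1.42.0 on the recovered reads, 4 other scalings, pseudocounts of 0.5 and 5, other filters, another reference, the lower row of an accession and leaving out each library were alternatives. Intervals were exact Poisson and exact conditional (Clopper-Pearson) at 95%. Named besides the members were the 3 miRNAs most like the higher arm of each hairpin and, of the list of 21, the 3 most abundant and any called. The members and lists were chosen with earlier results of these data known.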

Additional observations from a re-analysis of the deposited data

Results flagged for a closer look

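The library of undetermined reads, which no comparison between genotypes used, held all 10 arms, and 5 of them stood above Wild-type beyond their counting intervals. The ratio of that library to Wild-type was 2.21 (95% interval 2.01 to 2.43) for miR-140-5p, 1.65 (1.60 to 1.69) for miR-199a-5p and 1.48 (1.35 to 1.63) for miR-143-5p. It was 1.37 (1.16 to 1.61) for miR-214-3p and 1.17 (1.15 to 1.19) for miR-199a-3p. The other 5 stood below Wild-type beyond their intervals, at 0.842 (0.832 to 0.852) for miR-143-3p, 0.925 (0.883 to 0.969) for miR-145-5p, 0.612 (0.504 to 0.740) for miR-145-3p, 0.710 (0.588 to 0.853) for miR-214-5p and 0.781 (0.767 to 0.796) for miR-140-3p. The reads of that library may come from any of the genotypes. Its share of all miRNAs beyond their counting intervals was not counted, so the split of the 10 arms has no background. Except for miR-143-5p, at 248 nRPM above all 8 genotype libraries, the 10 values lay within the range of the 8.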

How the results depend on the processing

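The counts of members 2-fold or more from Wild-type stayed within 1.5 times under 4 other scalings and both pseudocounts. Plain library totals kept 22 of the 24 pairs, a pseudocount of 5 kept 23, and the other scalings and the pseudocount of 0.5 kept 24. With the median of the 8 libraries as reference the counts were 0 in Delta-18, 1 in Delta-19, 1 in Delta-92, 1 in Delta-17,18, 2 in 19-only and 0 in Full-KO, and 3 called ratios turned sign: miR-143-5p in Delta-18 (log2 0.0818) and miR-140-5p in Delta-19 (-0.0754) and 19-only (-0.0253). Only the reference was changed, and the median includes the library compared. Among the 329 miRNAs averaging 100 nRPM or more, the share 2-fold or more away fell as well. It went from 8.51% to 5.47% in Delta-17, from 26.1% to 7.90% in Delta-17,18 and from 19.1% to 7.90% in Full-KO.

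The limma model called 0 members for the miR-17, miR-18 and miR-92 terms under all alternatives run. For the miR-19 term it called 0 to 1 with 1 library left out, the 1 without Delta-92. Members with a range of 4-fold or more numbered 1 to 3 with 1 library left out, the 1 without 19-only. Under 1 of the other scalings (trimmed means, TMM) they numbered 4, with miR-145-5p at 4.16-fold, and under the rest 3. Over all miRNAs, the miR-18 term had 2 calls with limma, 0 with edgeR and 0 without Delta-18, Delta-19 or Wild-type, 1 without Full-KO or with the filter at 100 nRPM, and 5 without Delta-92. With that stricter filter the miR-19 term had 2 calls in place of 4, and 3 members were not tested. The hairpins with an arm ratio range of 4-fold or more stayed at 4 with the lower rows. No paired analysis was possible because each genotype had 1 library. Depth limits the rarer arms most, down to 222 reads of miR-214-5p in Delta-92.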
